A study of Homo sapiens with 2 samples.

Results

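The metallothioneins MT2A, MT1E, MT1F, MT1G, MT1H, MT1M and MT1X were examined in PC3 cells together with MTF1 and SLC30A1, the regulator and the zinc exporter that work with them. These 9 genes were taken by name, and every probe set that the platform annotation ties to one of them alone was used, which gave 17 of the 37151 probe sets naming exactly 1 gene (9 of 18392 genes). No probe set in the table named several metallothioneins, so none had to be given apart. One array held RNA of PC3 cells given 10 µM fluphenazine, a phenothiazine antipsychotic, and the other RNA of PC3 cells given DMSO, the solvent. PC3 is a prostate cancer line first grown from a metastasis in bone, and both cultures were kept in RPMI-1640 with 10% fetal bovine serum. How long the cells were treated is not stated in the labels. With 1 array a treatment no value below has a replicate error and no test across cultures exists. "Higher" and "lower" describe these 2 arrays only.

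Metallothioneins are small cysteine-rich proteins that bind zinc and copper and take up cadmium, and they buffer free zinc in the cytosol. Free zinc activates MTF1, a zinc-finger transcription factor that binds metal response elements in the promoters of metallothionein genes and of SLC30A1, which encodes ZnT1, the exporter that carries zinc out of the cell. Normal prostate epithelium accumulates zinc to unusually high levels, and malignant prostate cells are known to hold much less. In the RefSeq gene order the 7 metallothionein members lie in 1 block of 15 annotated genes on chromosome 16, with MT2A at one end and MT1X at the other. All others in that block are metallothionein genes or pseudogenes, apart from 1 long non-coding RNA gene.

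The promoters below, RefSeq sequence of build GRCh38.p14, are shown because they hold the letters that MTF1 is known to read. Each runs from 250 bases before to 50 bases after the start of the gene, 5′ to 3′ on the strand of the gene, and promoters of 5 of the 9 members were in the table used. Capitals mark matches to the core of the metal response element, searched as TGCACNC and TGCGCNC on both strands, with N any base. No printed match overlaps another. The windows are chr16:56608334-56608633 on the plus strand, chr16:56669564-56669863 on the plus strand, chr16:56682220-56682519 on the plus strand and chr1:211579112-211579411 on the minus strand.
MT2A: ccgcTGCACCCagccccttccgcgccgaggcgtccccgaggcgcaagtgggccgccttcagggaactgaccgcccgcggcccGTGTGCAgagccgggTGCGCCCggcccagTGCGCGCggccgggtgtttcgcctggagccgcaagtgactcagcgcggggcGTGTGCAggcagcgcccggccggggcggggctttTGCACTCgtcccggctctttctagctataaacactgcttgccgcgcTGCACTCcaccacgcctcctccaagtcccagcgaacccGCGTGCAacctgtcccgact
MT1H: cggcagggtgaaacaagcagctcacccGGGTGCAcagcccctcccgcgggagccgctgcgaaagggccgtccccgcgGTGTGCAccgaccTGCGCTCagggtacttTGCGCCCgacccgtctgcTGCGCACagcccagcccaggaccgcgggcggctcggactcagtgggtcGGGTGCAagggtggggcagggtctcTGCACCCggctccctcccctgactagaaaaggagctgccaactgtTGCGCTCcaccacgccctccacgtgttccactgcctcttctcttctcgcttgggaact
MT1X: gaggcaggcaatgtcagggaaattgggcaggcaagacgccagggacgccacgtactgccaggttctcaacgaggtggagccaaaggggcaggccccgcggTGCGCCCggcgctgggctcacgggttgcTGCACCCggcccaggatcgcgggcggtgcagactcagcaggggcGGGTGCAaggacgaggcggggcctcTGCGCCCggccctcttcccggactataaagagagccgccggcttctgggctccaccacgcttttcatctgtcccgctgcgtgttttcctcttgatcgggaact
SLC30A1: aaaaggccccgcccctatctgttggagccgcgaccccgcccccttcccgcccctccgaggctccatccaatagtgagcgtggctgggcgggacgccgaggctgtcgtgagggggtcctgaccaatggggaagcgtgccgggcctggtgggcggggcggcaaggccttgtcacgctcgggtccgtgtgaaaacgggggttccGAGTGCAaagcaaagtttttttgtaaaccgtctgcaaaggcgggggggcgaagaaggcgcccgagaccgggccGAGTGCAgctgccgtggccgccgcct

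MT2A and MT1H had 8 matches each, MT1X had 4 and SLC30A1 had 2. Of 35116 promoters of this length, 29.6% held at least 1 match. As many as 8 were found in 0.0199% of them, 4 or more in 0.601%, and 2 or more in 8.6%. The MTF1 window, which is not printed, had 0, which says only that these letters are not in it. A match stood at a like place in each of the 4 printed promoters, its first base 54 bases before the start in MT2A, 53 in MT1H and MT1X, and 49 in SLC30A1. The match lay on the strand of the gene in the 3 metallothioneins and on the opposite strand in SLC30A1. MT1H and MT1X also shared a match on the opposite strand, 78 bases before the start. The arrays measured transcript signal and not binding, so a match here is a description of the sequence.

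**Figure D1:**
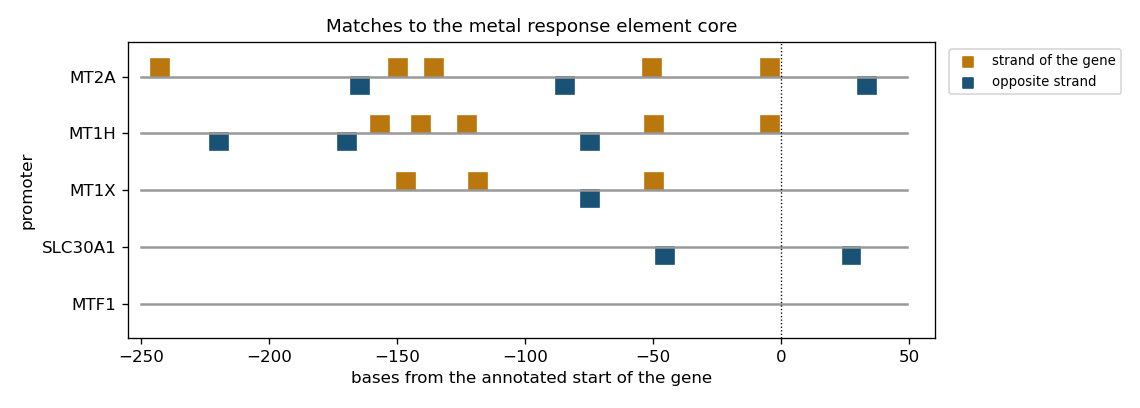
Positions of the metal response element core in 5 promoters, in bases from the annotated start of each gene (dotted line). Boxes above a line lie on the strand of the gene and boxes below it on the opposite strand. MT2A and MT1H have 8 boxes each, MT1X has 4, SLC30A1 has 2 and MTF1 has 0.

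The signals are the authors' deposited log2 values, 1 a probe set and array, and every difference is the fluphenazine value minus the DMSO value. None of the 17 member probe sets differed by 1.5-fold in either direction. Over all probe sets naming 1 gene, 1.72% did. At 1.5-fold higher the share over all probe sets was 0.767%, and at 1.5-fold lower 0.953%. Of the members 11 were higher on the fluphenazine array and 6 were lower, and their median difference was 0.03 on the log2 scale, against -0.01 over all 37151 probe sets. Of 11 metallothionein probe sets 10 were higher with fluphenazine, against 48.3% of all probe sets. Of 6 probe sets of MTF1 and SLC30A1, 1 was higher, the brightest of SLC30A1. RNA of whole cultures cannot tell a change in the RNA of each cell from a change in the number of cells that make it.

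**Figure D2:**
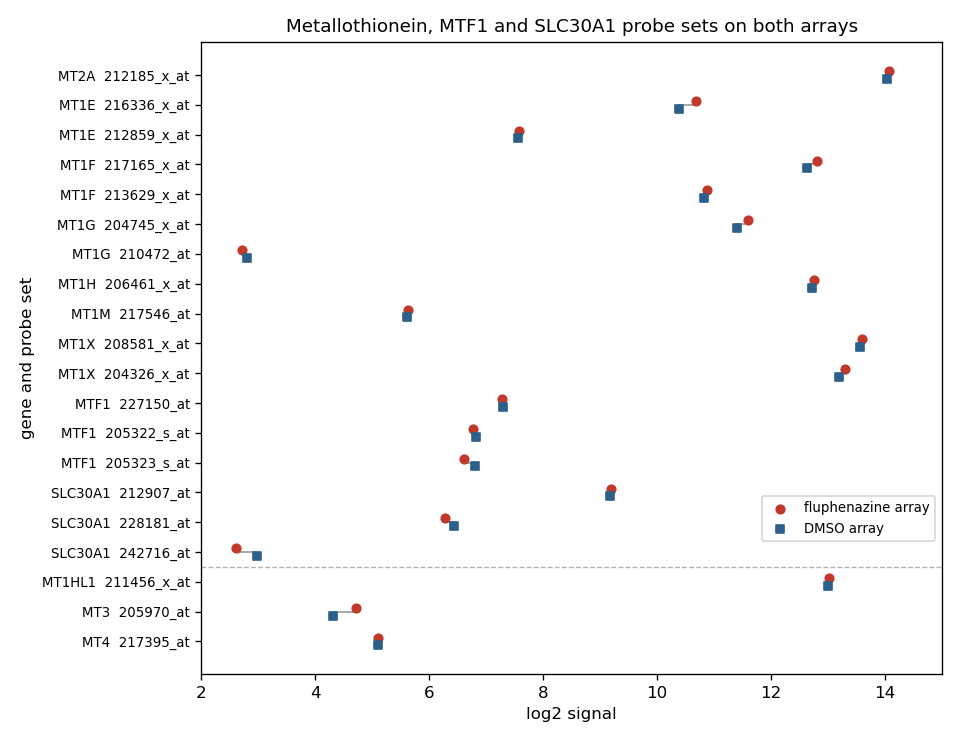
Log2 signal of each probe set on the fluphenazine array (circles) and the DMSO array (squares), with the 17 member probe sets above the dashed line and MT1HL1, MT3 and MT4 under it. The symbols of most pairs touch, and the widest member gap is that of the SLC30A1 probe set 242716_at, at 2.61 with fluphenazine and 2.98 with DMSO.

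MT2A, the most widely expressed human metallothionein, was read by 1 probe set, 212185_x_at. Its log2 signal was 14.07 on the fluphenazine array and 14.04 on the DMSO array, a difference of 0.04 or 1.03-fold. Only 11 of the 47693 probe sets on the fluphenazine array and 15 on the DMSO array were as bright or brighter, MT2A itself included. The highest value was 14.28 on the fluphenazine array and 14.27 on the DMSO array. MT1X, another isoform that most tissues express, was almost as bright. Its probe set 208581_x_at had 13.59 with fluphenazine and 13.56 with DMSO, a difference of 0.03. The other probe set annotated to MT1X, 204326_x_at, had 13.29 with fluphenazine and 13.19 with DMSO, a difference of 0.10. The transcript that this second probe set was built on is that of MT1L, a transcribed pseudogene of the same block, in the RefSeq table, so its assignment to MT1X is uncertain. MT1H had 12.75 with fluphenazine and 12.72 with DMSO, a difference of 0.03. These probe sets thus sat near the top of the range on both arrays and differed by at most 0.10. Close to MT1H in signal, the MT1F probe set 217165_x_at, given below, differed by 0.16. Whether the probes of these bright probe sets were near saturation was not tested, since probe intensities were not used here.

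The wider gaps were in MT1E, MT1G and MT1F, inducible isoforms of the same block. The MT1E probe set 216336_x_at had 10.67 with fluphenazine and 10.39 with DMSO, the largest positive difference of any member at 0.28, or 1.22-fold. The other MT1E probe set, 212859_x_at, had 7.57 with fluphenazine and 7.56 with DMSO and so differed by 0.01. The pair for MT1E therefore disagreed by 0.28. MT1G was at 11.60 with fluphenazine and 11.39 with DMSO by 204745_x_at, a difference of 0.20 or 1.15-fold. Its dim probe set 210472_at had 2.72 with fluphenazine and 2.80 with DMSO, a difference of -0.08 and the only lower metallothionein value. For MT1F the brighter probe set, 217165_x_at, had 12.80 with fluphenazine and 12.64 with DMSO, a difference of 0.16. The dimmer one for MT1F, 213629_x_at, had 10.88 with fluphenazine and 10.81 with DMSO, a difference of 0.07. Each of these 3 genes had 1 probe set that differed by 0.16 or more, and a second that differed by 0.08 or less in size.

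Different probe sets of the same gene give some idea of measurement noise inside the arrays, and their differences had a pooled SD of 0.15 over 4852 genes with at least 2 probe sets above a floor of 5.24. That floor is the median, over all probe sets naming 1 gene, of the higher of the 2 values. Among bright probe sets, with a mean log2 signal of 10 or more, the SD was 0.083 over 348 genes. Neither value contains the variation between cultures. Differences among 2195 bright probe sets ran from -0.27 to 0.32 in their central 95%, and all 8 bright metallothionein probe sets lay inside that range, at 0.03 to 0.28. All 8 were above 0, against 50.3% of bright probe sets, and their median was 0.09 against a median of 0.0004 for the bright ones.

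These values are not separate measurements. All 9 member probe sets of metallothioneins with a log2 signal above 7 carry the suffix x, which the maker gives to probe sets whose probes also match other transcripts. Human metallothionein transcripts are near-identical over much of their length, so one abundant isoform can give signal in the probe sets of others. All 9 were higher with fluphenazine, by 0.01 to 0.28 and a median of 0.07. Of the 294 bright probe sets on the array with this suffix 125 were higher, or 42.5%, with a median of -0.02. Among the 9, the MT1E probe set 212859_x_at, at 7.57 with fluphenazine, was not bright by that measure. The 2 metallothionein member probe sets without the suffix were dim. They are 210472_at of MT1G, given above, and 217546_at of MT1M, an isoform silenced in some tumours, which had 5.62 with fluphenazine and 5.60 with DMSO. Among the members, the one higher metallothionein value from a probe set without the suffix was thus the 0.03 of MT1M.

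**Figure D3:**
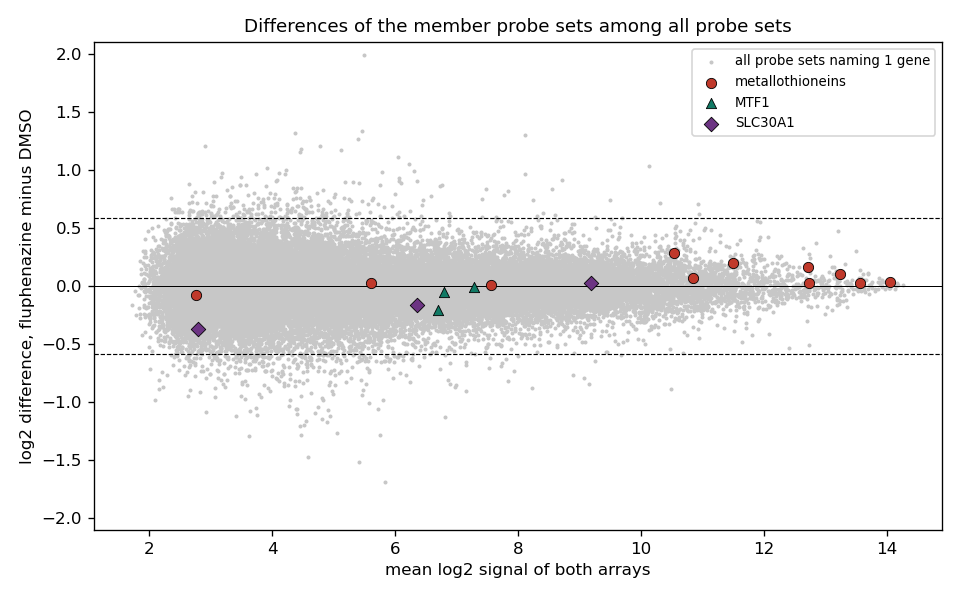
Log2 difference, fluphenazine minus DMSO, against the mean log2 signal of both arrays. Grey points are all 37151 probe sets naming 1 gene, larger symbols the 17 members, and dashed lines mark 1.5-fold; the bright metallothioneins lie between 0.03 and 0.28 on the right and no member reaches a dashed line.

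MT1HL1, MT3 and MT4, metallothionein genes outside the list of members, had a probe set each. MT1HL1, an intronless copy outside the block and again read by a probe set with the suffix x, was at 13.02 with fluphenazine, 0.02 above its DMSO value. MT3, the isoform best known from brain, was at 4.71 with fluphenazine and 4.30 with DMSO, both under the floor of 5.24, and its difference of 0.41 was the largest of any metallothionein. As a share of all probe sets, 96.9% had a smaller or more negative difference than MT3. MT4, an isoform of stratified squamous epithelium, was at 5.10 on both arrays, also under the floor. No probe set in the table was annotated to MT1A, MT1B, MT1L, MT1JP or MT1DP.

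MTF1, the zinc sensor that switches metallothionein genes on, was lower or level by all 3 of its probe sets. The brightest, 227150_at, had 7.28 with fluphenazine and 7.29 with DMSO, a difference of -0.01 that turned positive under all alternative scalings but centring on the median, where it was 0. For 205322_s_at of MTF1 the values were 6.77 with fluphenazine and 6.82 with DMSO, a difference of -0.05. For 205323_s_at of MTF1 they were 6.60 with fluphenazine and 6.81 with DMSO, a difference of -0.21. The 3 probe sets of MTF1 spanned 0.20, about as wide as the largest of their differences.

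SLC30A1, the exporter at the cell surface whose gene MTF1 also switches on, gave 3 unlike values. Its bright probe set, 212907_at, had 9.20 with fluphenazine and 9.17 with DMSO, a difference of 0.03. A dimmer one for SLC30A1, 228181_at, had 6.27 with fluphenazine and 6.43 with DMSO, a difference of -0.16. The dimmest for SLC30A1, 242716_at, had 2.61 with fluphenazine and 2.98 with DMSO, both under the floor, and at -0.37 it held the widest difference of any member. The 3 spanned 0.39, more than any other member gene, and the larger gaps were those of the dimmer probe sets. SLC30A1 and MT2A, both known to be driven by MTF1, thus differed by 0.03 and 0.04 at their brightest probe sets.

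Other transporters of zinc were read from lists, with 1 value a gene, from its probe set with the highest mean, and only for genes whose higher value reached the median over all genes, 6.19. Above that floor 0.576% of 9196 genes differed by 1.5-fold in either direction (0.283% higher and 0.294% lower), and their median difference was -0.01. The SLC30 family carries zinc out of the cytosol. Beside SLC30A1, 5 of its 8 measured genes were above the floor, 3 higher and 2 lower, none by 1.5-fold, with a median of 0.03. SLC30A5, which loads zinc into the secretory pathway, was at 9.22 with fluphenazine and 8.93 with DMSO, a difference of 0.29. Its 5 probe sets ranged from -0.03 to 0.38. SLC30A7, with the same task in the Golgi, was at 9.70 with fluphenazine and 9.51 with DMSO, a difference of 0.19, and its 3 probe sets were all higher, by 0.08 to 0.23. SLC30A9, SLC30A6 and SLC30A3 differed by 0.03, -0.03 and -0.04.

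The SLC39 family carries zinc into the cytosol. Of 13 measured members 11 were above the floor, 4 of them higher and 7 lower, none by 1.5-fold, with a median of -0.04. SLC39A14 (ZIP14), which also carries iron and manganese and is induced in inflammation, was at 10.99 with fluphenazine and 10.76 with DMSO, a difference of 0.23. SLC39A13, a zinc transporter of the secretory pathway, was at 0.17 and SLC39A9 at 0.02. The largest negative difference was that of SLC39A3, at 7.55 with fluphenazine and 7.85 with DMSO, or -0.31, but the 3 probe sets of SLC39A3 ranged from -0.31 to 0.39. SLC39A10, an importer at the cell surface, was at -0.17 and SLC39A11 at -0.10. SLC39A1 (ZIP1), the importer linked to zinc uptake in prostate and named here after its value was seen, was at 8.09 with fluphenazine and 8.13 with DMSO, a difference of -0.04.

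**Figure D4:**
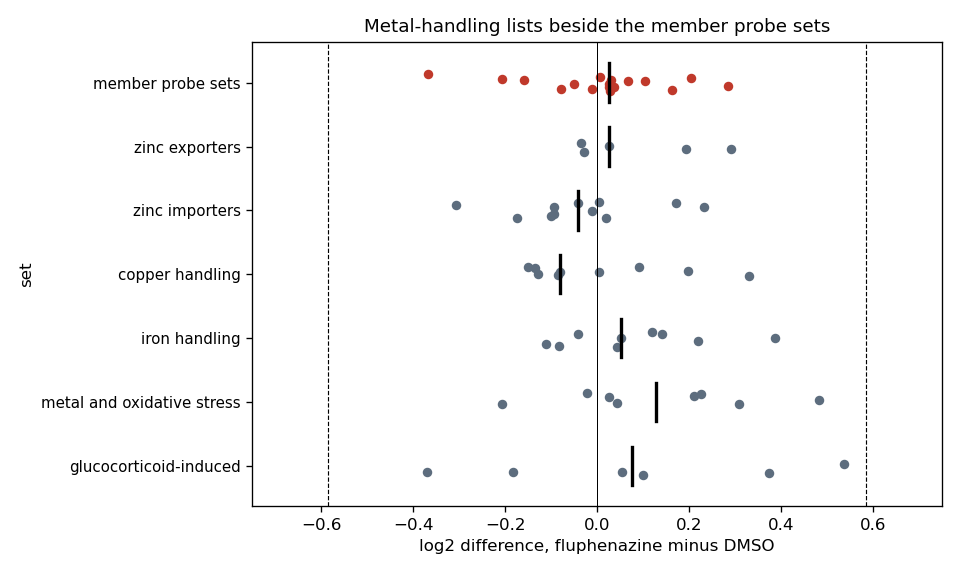
Log2 differences, fluphenazine minus DMSO, of the 17 member probe sets (top row) and of the genes above the floor in 6 lists, 1 point a gene. Black bars are medians and dashed lines mark 1.5-fold; no point lies beyond them, and the medians run from -0.08 for copper handling to 0.13 for metal and oxidative stress.

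Copper, which metallothioneins also bind, and iron gave the same picture of small gaps both ways. Of 9 copper genes above the floor 4 were higher and 5 lower, with a median of -0.08. The copper transporters SLC31A2 and SLC31A1 were at 0.33 and 0.20 and the assembly factor COX11 at 0.09. The 4 probe sets of COX11 ranged from -0.11 to 0.27. The assembly factor SCO2, the copper pump ATP7A and the chaperone ATOX1 were at -0.15, -0.13 and -0.13. Of 9 iron genes above the floor 6 were higher and 3 lower, with a median of 0.05. FTH1 and IREB2 of the iron list had no probe set naming them alone. FBXL5, which marks the iron regulator IREB2 for degradation, was at 0.39, the iron-responsive aconitase ACO1 at 0.22 and the transporter SLC11A2 at 0.14. The 2 probe sets of ACO1 ranged from 0.005 to 0.22 and the 5 of SLC11A2 from -0.07 to 0.14. The iron chaperones PCBP1 and PCBP2 were at -0.11 and -0.08, with the 6 probe sets of PCBP2 spread from -0.20 to 0.70, and the ferritin receptor NCOA4 was at -0.04. By its probe set with the highest mean no gene of either list reached 1.5-fold, though the PCBP2 probe set at 0.70 did.

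Heavy metals and oxidants raise metallothioneins together with glutathione and heat shock genes, and glucocorticoids raise MT2A. In the metal and oxidative stress list 6 of 8 genes above the floor were higher and 2 lower, with a median of 0.13, and none reached 1.5-fold. The heat shock genes HSPA1A and HSPA1B of this list had no probe set naming them alone, so neither was measured here. Without the floor, which adds HSPA6 at -0.57, the median was 0.04. The cystine importer SLC7A11 was at 9.71 with fluphenazine and 9.23 with DMSO, a difference of 0.48. Its 3 probe sets ranged from 0.37 to 0.59, the highest of them just past 1.5-fold. The thioredoxin reductase TXNRD1 was at 0.31 and GCLC, the catalytic subunit for glutathione synthesis, at 0.23. The 3 probe sets of GCLC ranged from -0.01 to 0.25. The co-chaperone BAG3 was at -0.21 and SRXN1, which repairs peroxiredoxins, at -0.02. HMOX1, the heme oxygenase that cadmium induces strongly and that is named here after its value was seen, was at 7.05 with fluphenazine and 7.01 with DMSO. Of 6 glucocorticoid-induced genes above the floor 4 were higher and 2 lower, with a median of 0.08. PER1 of that list had no probe set naming it alone. That list also holds the glucocorticoid receptor NR3C1, which glucocorticoids are not known for inducing, and without it 3 of 5 genes were higher, with a median of 0.05. The phosphatase DUSP1 was at 0.54 and the EGF receptor inhibitor ERRFI1 at 0.37, with NR3C1 at 0.10. The kinase SGK1 was at -0.37 and the receptor co-chaperone FKBP5 at -0.18. The 3 probe sets of DUSP1 ranged from -0.15 to 0.54, and averaging them gave 0.19. The 5 of NR3C1 ranged from -0.26 to 0.27 and the 3 of FKBP5 from -0.24 to 0.02. The metal and oxidative stress list thus ran from -0.21 to 0.48 and the glucocorticoid-induced list from -0.37 to 0.54. The bright metallothioneins ran from 0.03 to 0.28. The comparison is not at like signal, since the lists take genes down to the floor of 6.19.

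The deposited values of both arrays had nearly the same distribution. Over 47693 probe sets the log2 signal had a median of 4.73 with fluphenazine and 4.74 with DMSO. RMA, named in the submitters' notes, normalizes arrays to each other, so this likeness cannot show how alike the arrays were before it. All 24 poly-A spike-in probe sets, which read bacterial RNA added before labelling, were dimmer with fluphenazine (median difference -0.22), while the bright metallothioneins were all slightly higher. The part of this drop in the values above was not tested. The epithelial markers KRT8, KRT18, KRT19, EPCAM and CDH1 were all above the floor, at 9.28 to 12.72 with fluphenazine and 9.70 to 12.69 with DMSO. At the highest probe set of each gene KRT8 had the widest gap, a difference of -0.42, wider than that of any member probe set. KRT18 and KRT19 were at -0.13 and -0.08, and EPCAM and CDH1 at 0.07 and 0.10. The 2 probe sets of KRT19 ranged from -0.43 to -0.08 and the 2 of CDH1 from -0.25 to 0.10. Of 9 measured markers of leukocytes, endothelium and fibroblasts 7 were under the floor, all but PECAM1, at 8.49 with fluphenazine and 8.76 with DMSO, and COL1A1, at 8.33 on both arrays. The prostate genes KLK3 and TMPRSS2 were above it, at 6.90 and 7.11 with fluphenazine and 6.93 and 6.99 with DMSO.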

How the data were processed

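RNA of 2 PC3 cultures, 1 given 10 µM fluphenazine and 1 given DMSO, was measured on 1 array each, with groups taken from the labelled agent. The submitters' processing notes name RMA, Transcriptome Analysis Console 3.1 and Affymetrix Expression Console 1.4 without saying what each did. The deposited values were taken as log2 signals from their range, 1.60 to 14.28. After sorting, both columns differed by at most 0.13. The number of arrays limits the precision.

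Probe sets were named by the platform annotation of 2016, and symbols were updated through the gene identifier. Of 47693 probe sets, 37151 named 1 gene, 1668 named several and 8874 were unnamed here. Differences, counts past 1.5-fold and medians were computed with no test. All member probe sets are named. Each list gives up to 3 genes with the largest difference each way above the floor. Members and lists were chosen with earlier results of these data known. Alternatives were 4 scalings (quantile, median, 75th percentile, loess with a span of 0.3), a 2-fold threshold, the floor, and gene summaries. The calculation was tested on simulated data. Python 3.11.15, numpy 2.4.6, pandas 2.3.3 and statsmodels 0.14.6 were used. No label or header names a genome build for the files.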

Additional observations from a re-analysis of the deposited data

How the results depend on the processing

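No member probe set reached 1.5-fold under any of the 4 scalings, the 2-fold threshold or the floor of 5.24, and adding probe sets that name several genes added none. The scalings moved the difference of a member probe set by at most 0.029, and only 227150_at of MTF1, at -0.01, did not keep its sign. The 9 metallothionein probe sets with shared probes were higher under all 4 scalings. The deposited columns already differed by at most 0.13 after sorting, so rescaling could move these values only a little. No scaling used the spike-in probe sets. The members' median lay between 0.02 and 0.05 over all alternatives. With 1 value a gene, no gene of the 6 lists reached 1.5-fold under any alternative run. Single probe sets of SLC30A2, PCBP2, SLC7A11 and KLF9 did reach it in the deposited values. Without a floor the median was -0.03 for zinc exporters and 0.003 for copper handling, and with averaged probe sets it was -0.02 for glucocorticoid-induced genes, each of the opposite sign to the value reported. With averaged probe sets the zinc exporters had a median of 0.16, and without a floor the metal and oxidative stress list had one of 0.04 in place of 0.13. Leaving NR3C1 out of the glucocorticoid-induced list, chosen after seeing the data, gave a median of 0.05. The cause was not tested. A shift counted as small when it was under the SD of 0.15 between probe sets of one gene, which is no spread between cultures. No paired analysis was possible because each treatment had 1 array. Leaving out a replicate was impossible for the same reason.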
